A study of Mus musculus with 4 samples.

Results

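Genes of the circadian clock were described in mouse embryonic stem cells (mESCs) before and after the cells had switched to alternative lengthening of telomeres (ALT), the recombination-based upkeep of chromosome ends that replaces telomerase. The 10 genes, of 53379 in the tables, were Arntl, Arntl2, Clock, Per1, Per2, Cry1, Cry2, Nr1d1, Bhlhe40 and Bhlhe41, each matched by its exact symbol. They were chosen by their measured difference between the same groups of libraries, so their values are given as a description, with no p-value, and where the fit over all genes called them that too is only a description. RNA was sequenced in bulk from DKO741, 1 line of Terc-/- cells derived from E14 mESCs, in which both copies of the telomerase RNA gene were replaced by targeting. Pre-ALT cells had gone through 100 population doublings (PD100) and post-ALT cells through 800 (PD800), with 2 libraries each. Both groups carry the same deletion, and no Terc+/+ library was analysed here, so population doubling, telomere state and any clonal change within the line cannot be told apart. The study kept its stocks on mouse embryonic fibroblast feeders and took the cells for RNA from feeder-free culture. No step that sets the clocks of the cells to a common phase, and no hour of harvest, is given in the sources used here.

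In the clock, CLOCK or its relative NPAS2 pairs with BMAL1, the protein of Arntl, or with BMAL2, the protein of Arntl2, and the pair switches on genes that carry the E-box, a short DNA motif. Among these genes are those of the PER and CRY proteins, which return to the nucleus and block the pair that activated them. REV-ERB-alpha, the protein of Nr1d1, represses Arntl in a second loop against the ROR activators, and DEC1 and DEC2, the proteins of Bhlhe40 and Bhlhe41, bind E-boxes as repressors. Mouse ES cells are known for expressing clock genes without an overt daily rhythm, which sets in as they differentiate.

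The motifs through which these proteins reach each other were looked up in the reference promoters, since both loops run through them. Promoter windows of 300 bases, from 250 before a start to 50 after it, came from RefSeq on GRCm38.p6, the build family of mm10 to which the reads had been aligned. The table held 12 windows for 8 of the members and none matched for Per2 or Bhlhe40. The E-box CACGTG, which reads the same on both strands, was found in the windows of 3 of those 8 genes, Per1, Cry1 and Bhlhe41, against 8.09% of all genes with a window (7.15% of all 32851 windows) and 4 of the 23 other clock genes with a window. It lay 166 bases before the start in Per1, 60 in Cry1 and 153 in Bhlhe41. The Per1 window starts inside the span of the gene, downstream of its outermost annotated start. The lines below give the strand of the gene from 5′ to 3′, with the E-box in capitals, at chr11:69098743-69098828 (plus strand) for Per1, chr10:85185069-85185154 (minus strand) for Cry1 and chr6:145865528-145865613 (minus strand) for Bhlhe41.
Per1: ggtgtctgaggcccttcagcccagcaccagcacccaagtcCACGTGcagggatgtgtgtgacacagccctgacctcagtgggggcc
Cry1: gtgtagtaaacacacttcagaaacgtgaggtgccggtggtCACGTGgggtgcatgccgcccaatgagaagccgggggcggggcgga
Bhlhe41: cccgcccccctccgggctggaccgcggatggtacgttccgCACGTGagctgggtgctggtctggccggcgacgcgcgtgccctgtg

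A variant of the E-box, CACGTT, sometimes called the E′-box, was searched on both strands, and no site can match both motifs. It was present in the windows of Cry1, Cry2 and Nr1d1, and in those of 5.44% of all genes (4.68% of all windows). In each of the 3 genes it read AACGTG on the strand of the gene, 79 bases before the start in Cry1, where it lies just before the E-box printed above, 166 in Cry2 and 28 in Nr1d1. The half-site TAGGTCA, bound by REV-ERB and ROR proteins and searched on both strands, was found in the Arntl window alone among the members and in 2.97% of all genes (2.61% of all windows). It began at base 31 after the start of Arntl, the gene whose repression by REV-ERB-alpha closes the second loop. The D-box TTATGTAA, read by the output factors DBP, TEF, HLF and NFIL3 and also searched on both strands, was in 1.11% of all genes (0.938% of all windows) and in none of the members' windows. The lines below show the Cry2 motif at chr2:92434190-92434275 (minus strand), the Nr1d1 motif at chr11:98775360-98775445 (minus strand) and the Arntl half-site at chr7:113207501-113207560 (plus strand), with the motif in capitals.
Cry2: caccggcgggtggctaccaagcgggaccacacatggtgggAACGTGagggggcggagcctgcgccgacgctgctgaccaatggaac
Nr1d1: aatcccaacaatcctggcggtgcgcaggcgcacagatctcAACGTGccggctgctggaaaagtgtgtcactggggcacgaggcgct
Arntl: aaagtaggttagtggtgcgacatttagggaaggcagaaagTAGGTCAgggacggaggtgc
These are matches of letters in a reference window, and binding was not measured. The transcript start of the Nr1d1 window did not coincide with a start in the gene annotation used for coordinates.

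The libraries held between 32454121 and 38492149 estimated counts, and replicates correlated at 0.984 in pre-ALT and 0.992 in post-ALT cells across genes in log2 CPM, the counts scaled to library size by the trimmed mean of M values (TMM). Mitochondrially encoded genes took 11.0% to 15.4% of the counts in pre-ALT and 16.0% to 17.7% in post-ALT libraries. Terc itself had 1 count in 1 pre-ALT library and 0 in the others, which goes against none of the labels. Embryonic stem cell markers were present in all libraries: all 8 lay above 0 on the log2 scale of the difference, and 2 of them, Nanog and Esrrb, rose. A gene was called when its adjusted p was under 0.01 (edgeR quasi-likelihood test, Benjamini-Hochberg over 19148 tested genes) and its fold over 2.

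All 10 clock genes passed the filter on low counts, and 4 of them were called lower in post-ALT cells: Arntl2, Nr1d1, Bhlhe40 and Bhlhe41. Bhlhe41 reached the level of the filter, 0.282 CPM before TMM scaling, in the pre-ALT libraries only, so it could be tested only through the group where it was high. Across all tested genes 8.81% were called lower and 6.28% higher, and since the genes were chosen on this contrast nothing is read from their count. None of the 10 was called higher with edgeR or with DESeq2, and none was more than 2-fold up. The log2 fold changes, post-ALT over pre-ALT, ran from -3.48 for Arntl2 to 0.77 for Cry1 with a median of -0.56, against a median of 0.01 over all tested genes. CPM did not overlap between the groups in 9 of the 10, Per2 being the exception, and neither did they in 73.7% of all tested genes. In TPM, the length-scaled share of transcripts that RSEM gives, 7 of the 10 stood apart, against 70.3% of all tested genes, and Clock, Per2 and Cry2 overlapped. The scales were not centred alike: the median log2 difference of all genes was -0.12 on log2(TPM + 1) and -0.21 on log2(TPM + 0.1).

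**Figure D1:**
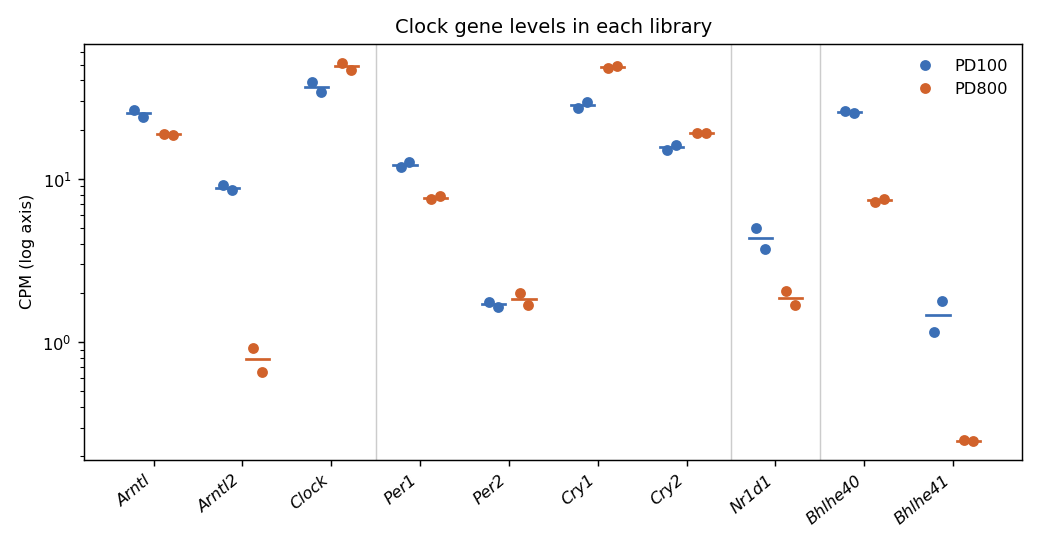
Each point is the CPM (log axis) of a clock gene in 1 library, blue for PD100 and orange for PD800, and each bar is the mean of 2 libraries. The vertical lines divide activators, PER and CRY repressors, Nr1d1 and the DEC repressors, and only the points of Per2 overlap between the groups.

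Among the activators, Arntl2 differed most, and it was the member with the lowest post-ALT to pre-ALT ratio. Arntl2 encodes BMAL2, the less studied partner of CLOCK, and lies on chromosome 6 (146796055 to 146833529, plus strand). It had 369 and 285 estimated counts in the pre-ALT libraries and 33 and 21 in the post-ALT libraries. Both post-ALT libraries were thus far below both pre-ALT libraries. Mean CPM was 8.84 ± 0.426 (SD, n = 2) in pre-ALT and 0.786 ± 0.187 in post-ALT cells, 11.2-fold lower, with a fitted log2 fold change of -3.48 ± 0.20 (SE), and -1.79 on log2(TPM + 1).

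Its paralogue Arntl, which encodes BMAL1, the activator that the clock cannot run without, differed much less. The gene lies on chromosome 7 (113207465 to 113314126, plus strand), and its estimated counts were 1070 and 801 before and 672 and 599 after the switch. Its CPM was 25.3 ± 1.77 in pre-ALT and 18.7 ± 0.038 in post-ALT cells, a log2 fold change of -0.44 ± 0.09, with no overlap between the groups. Clock, whose protein is the common partner of both, went the other way. It is on chromosome 5 (76209868 to 76304792, minus strand) and had 1585 and 1128 counts in pre-ALT and 1841 and 1489 in post-ALT libraries. Its CPM was 36.5 ± 3.87 and 48.8 ± 3.45, with a log2 fold change of 0.42 ± 0.10, but its TPM overlapped, at 4.86 and 3.77 against 5.34 and 4.37. The groups of Clock were therefore apart in CPM and not in TPM.

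The repressors that close the first loop did not move together. Cry1, a cryptochrome and the stronger repressor of the pair, was the member with the highest ratio, and it lies on chromosome 10 (85131700 to 85185064, minus strand). Its estimated counts were 1102 and 979 in pre-ALT and 1704 and 1571 in post-ALT libraries, both post-ALT libraries above both others. CPM went from 28.3 ± 1.44 to 48.2 ± 1.05, 1.70-fold, with a log2 fold change of 0.77 ± 0.08, which is under the fold set for a call. Cry2, on chromosome 2 (92403646 to 92434043, minus strand), differed by less, at 608 and 537 against 685 and 612 counts. Its CPM was 15.6 ± 0.723 and 19.1 ± 0.00992, with a log2 fold change of 0.29 ± 0.09, whereas its TPM was 3.75 ± 0.0283 and 3.74 ± 0.354. Its log2 difference was -0.01 in both fits on log2 TPM, scales on which the median of all genes was also lower.

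Per1, an early-responding gene that is also induced by hormones and cAMP, was lower, and Per2 was not. Per1 lies on chromosome 11 (69095217 to 69109960, plus strand) and had 478 and 421 counts in pre-ALT against 270 and 251 in post-ALT libraries, without overlap. Its CPM was 12.2 ± 0.546 and 7.66 ± 0.212, a log2 fold change of -0.67 ± 0.10. Its TPM was 2.34 and 3.64 in pre-ALT libraries, further apart than the CPM, and the mean transcript length estimated for it also differed between these libraries, at 4092 and 2590 bases. Per2, on chromosome 1 (91415982 to 91459324, minus strand), had 71 and 55 counts before and 72 and 54 after. These libraries overlapped and the log2 fold change was 0.11 ± 0.21. At such counts, each with an exact Poisson interval such as 55.5 to 89.6 for 71 counts, a modest difference in Per2 was not detectable.

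Nr1d1, a haem-binding nuclear receptor that represses Arntl, was lower in post-ALT cells together with its paralogue Nr1d2. Nr1d1 lies on chromosome 11 (98767932 to 98775333, minus strand), and its estimated counts were 203 and 124 in pre-ALT and 73.6 and 54.2 in post-ALT libraries. The pre-ALT libraries differed from each other by more than the post-ALT ones, and all the post-ALT values were below them. CPM was 4.37 ± 0.920 and 1.87 ± 0.256, 2.34-fold lower, with a log2 fold change of -1.22 ± 0.23. The call was lost without replicate 1 of the pre-ALT cells (log2 fold change -0.98), without replicate 1 of the post-ALT cells (-1.37) and without replicate 2 of the post-ALT cells (-1.08), and it held without replicate 2 of the pre-ALT cells (-1.44). It was also lost when a fold over 2 was tested in the model and in both limma fits on log2 TPM (-0.64 and -1.22). Thra, the thyroid hormone receptor gene on the opposite strand, shares 263 exon bases with Nr1d1, 8.55% of its exon bases, and had a log2 fold change of 0.62. Whether the counting used strand is not given in the sources used here, and the estimated counts of Nr1d1 were whole, within 0.005, in 0 of 4 libraries.

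The DEC repressors were both lower. Bhlhe40, which encodes DEC1 and also responds to hypoxia and many growth signals, lies on chromosome 6 (108660629 to 108666925, plus strand). It had 1053 and 844 counts in pre-ALT and 260 and 242 in post-ALT libraries, a clear separation in which replicates were close. CPM was 25.7 ± 0.565 and 7.38 ± 0.211, 3.48-fold lower, with a log2 fold change of -1.80 ± 0.09. Bhlhe41, which encodes DEC2, lies on the same chromosome (145858243 to 145865558, minus strand) and was the least abundant member in post-ALT cells. Its estimated counts were 46.8 and 59.3 in pre-ALT and 9 and 8 in post-ALT libraries, with exact Poisson 95% intervals of 4.12 to 17.1 and 3.45 to 15.8 for the latter, which cover counting error only. The log2 fold change was -2.53 ± 0.36, the largest error among the members, and Gm43909 on the opposite strand shares 1280 bases, 19.0% of the exon bases of Bhlhe41. The call of Bhlhe41 was lost when a fold over 2 was tested in the model and with limma on log2(TPM + 1), where its log2 difference was -0.26, against -1.18 on log2(TPM + 0.1), a scale on which a low gene is compressed by the pseudocount.

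Within each group, levels were ordered by TPM, which takes gene length into account. In pre-ALT cells Cry1 (8.17 ± 0.311), Bhlhe40 (7.51 ± 1.29) and Arntl (7.05 ± 1.03) stood highest. Bhlhe40 overlapped both of the others, and Cry1 and Arntl did not overlap. Clock, Arntl2 and Cry2 followed, at 4.32, 3.87 and 3.75 TPM and with overlapping ranges, and then Per1 (2.99), Nr1d1 (1.42), Bhlhe41 (0.275) and Per2 (0.220), each apart from the next. In post-ALT cells Cry1 stood alone at 12.8 ± 1.32 TPM. Clock (4.86) and Arntl (4.44) overlapped, Cry2 followed at 3.74, and Bhlhe40 (1.71) and Per1 (1.53) overlapped below it. Nr1d1 (0.550) overlapped Arntl2 (0.410), which overlapped Per2 (0.250), and Bhlhe41 was lowest and apart from these at 0.0650 TPM.

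The shares within pairs of paralogues did not overlap between the groups in 3 of 5 pairs in TPM and in 4 in CPM. Levels of single genes were apart in 70.3% of all tested genes in TPM and 73.7% in CPM. Every pair also holds a gene chosen on this contrast, so nothing is read from the count of pairs. Arntl2 made up 35.6% ± 4.33 of the summed TPM of Arntl and Arntl2 in pre-ALT cells and 8.40% ± 2.21 in post-ALT cells. In CPM, which leaves length aside, its share was 25.9% ± 0.424 and 4.03% ± 0.915. Cry1 made up 68.5% ± 0.984 of the TPM of the cryptochromes before and 77.3% ± 0.149 after. By contrast the share of Bhlhe41 in the DEC pair was 3.61% ± 0.862 and 3.67% ± 0.0409 in TPM, and that of Nr1d1 in the REV-ERB pair 22.3% ± 3.46 and 22.2% ± 0.562, and both overlapped between the groups. In CPM the Bhlhe41 share was 5.41% ± 1.64 and 3.27% ± 0.103 and did not overlap. The share of Per2 in the Per1 and Per2 sum was 7.26% ± 2.89 and 14.4% ± 6.90, with the nearest libraries of the groups at 9.30% and 9.52%. In CPM it was 12.2% ± 0.974 and 19.4% ± 2.37.

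**Figure D2:**
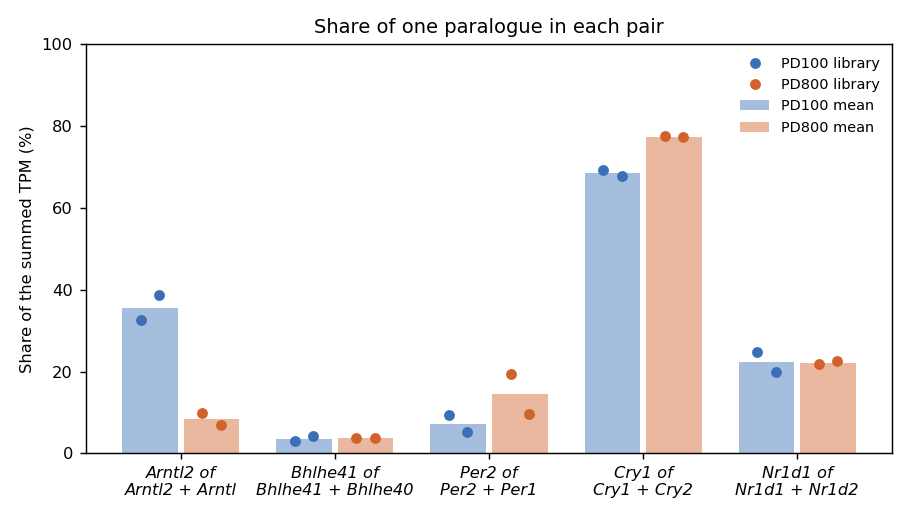
Bars give the mean share (%, from 0) of the first-named gene in the summed TPM of a pair of paralogues, and points give the 2 libraries of each group. The Arntl2 share is 35.6% at PD100 and 8.40% at PD800, and the Bhlhe41 and Nr1d1 points overlap between the groups.

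Summed over roles, the activators Arntl, Arntl2 and Clock came to 16.4 and 14.1 TPM in the pre-ALT libraries and 10.4 and 9.05 in the post-ALT libraries. The PER and CRY genes came to 14.7 and 15.6 TPM before and 19.4 and 17.2 after. The ratio of these repressors to the activators was therefore 0.897 and 1.11 in pre-ALT and 1.87 and 1.90 in post-ALT libraries, a description in RNA of genes chosen on this contrast. In CPM the activators came to 74.9 and 66.3 before and 70.8 and 65.6 after, which overlap, and the ratio was 0.747 and 0.900 before and 1.073 and 1.1797 after. The DEC genes, also repressors, are left out of this ratio and went the other way. They summed to 7.78 ± 1.27 TPM in pre-ALT and 1.77 ± 0.212 in post-ALT cells. In CPM they came to 27.2 and 27.1 before and 7.48 and 7.78 after. The size of the ratio thus depends on which repressors are counted.

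Other genes of the clock were listed from their textbook roles, with earlier results of these data known. Of these 27 could be tested, and 2 rose and 1 fell by the rule above, with a median log2 fold change of 0.12. Of all tested genes 6.28% were called higher and 8.81% lower, so nothing is read from the counts of the 27. Nr1d2, which encodes REV-ERB-beta, fell: its estimated counts were 969 and 826 in pre-ALT and 419 and 338 in post-ALT libraries, with a log2 fold change of -1.14 ± 0.09 (edgeR adjusted p = 0.000338). Its call held without each library in turn but not when a fold over 2 was itself the null hypothesis (adjusted p = 0.226). The remaining loop genes did not pass the rule. Npas2, the alternative partner of BMAL1, had 8 to 15 counts per library and a log2 fold change of 0.12 ± 0.40 (adjusted p = 0.840). Per3, the third period gene, had 249 and 184 counts against 233 and 169 and a log2 fold change of 0.01 ± 0.16 (adjusted p = 0.972). Rora, an activator that competes with the REV-ERBs, had a log2 fold change of 0.40 ± 0.15 (adjusted p = 0.0759), and Ciart, an E-box target that represses CLOCK and BMAL1, had 0.51 ± 0.16 (adjusted p = 0.0476). Rorb had 9 and 1 counts in pre-ALT and 0 in both post-ALT libraries, too few for the test.

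None of the 8 output genes was called with edgeR or DESeq2, although 2 were higher and 2 lower at an unadjusted p under 0.05 (edgeR), as were 26.35% and 26.95% of all tested genes. Noct, a circadian phosphatase named here after its values were seen, passed the adjusted p but not the fold, with a log2 fold change of -0.60 ± 0.10 (edgeR adjusted p = 0.00401). The list also holds the PAR bZIP factors Dbp, Tef and Hlf. Nampt, the most abundant of these by TPM and an enzyme of NAD salvage, had 0.35 ± 0.11 (adjusted p = 0.0411). Of the 14 modifiers 2 rose, beside 6.28% of all tested genes. Csnk1d, the casein kinase that marks PER proteins for decay, had 3830 and 3090 counts in pre-ALT and 8981 and 8004 in post-ALT libraries and a log2 fold change of 1.41 ± 0.07 (edgeR adjusted p = 8.33e-05). Wdr5, a subunit of histone methyltransferases that is found with PER complexes, had 4247 and 3744 against 7880 and 7124 and a log2 fold change of 1.02 ± 0.07 (edgeR adjusted p = 0.00024), just over the fold set. Without replicate 1 of the pre-ALT cells Wdr5 had 0.98 and was no longer called, nor was it in either fit on log2 TPM (0.74 and 0.76). Nono, the most abundant modifier and a partner of the PER proteins, had 0.22 ± 0.08 (adjusted p = 0.0712).

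**Figure D3:**
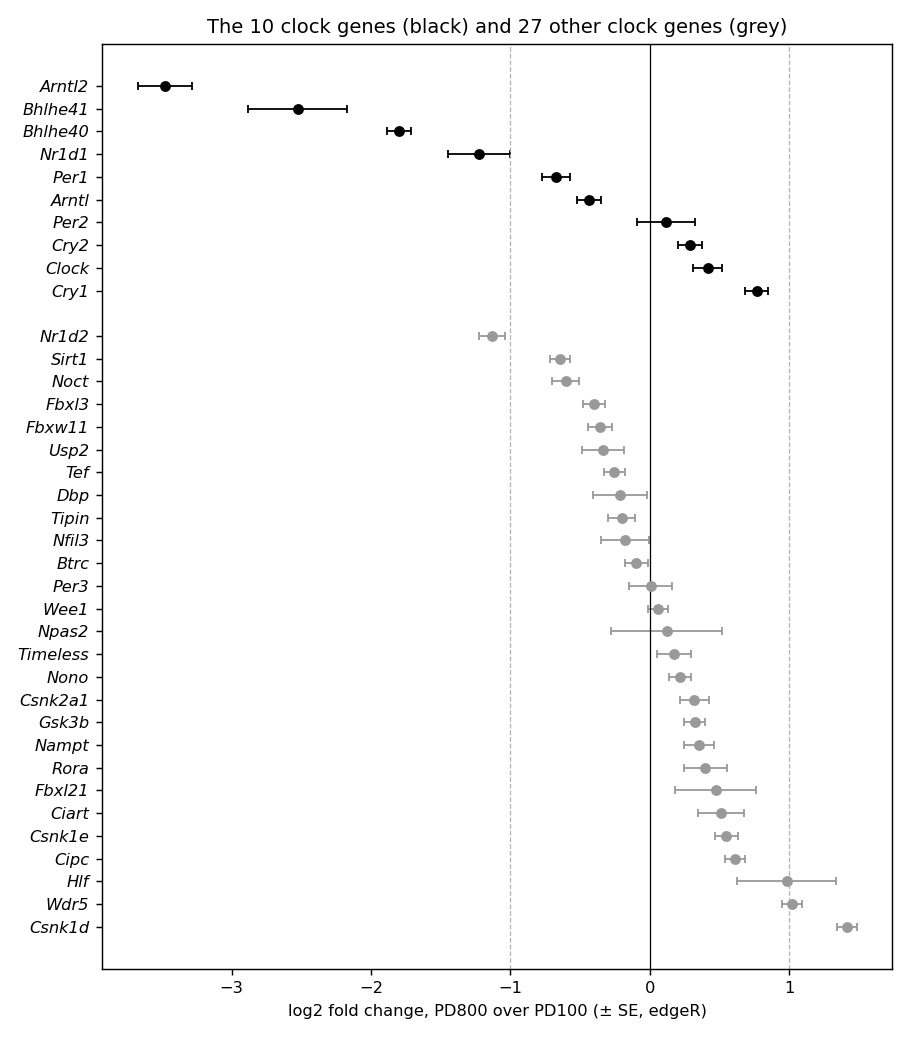
Log2 fold changes of PD800 over PD100 with their standard errors, for the 10 chosen genes (black) and the 27 other tested clock genes (grey). Dashed lines mark a 2-fold difference, which Arntl2, Bhlhe41, Bhlhe40, Nr1d1 and Nr1d2 pass downwards and Csnk1d and Wdr5 upwards.

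Position on the chromosome was compared next, through the 40 tested genes nearest to each clock gene on the same chromosome. Arntl2 and Bhlhe41 lie within 2.75 and 3.72 Mb of the last annotated base of chromosome 6, where genes were mostly higher. Around Arntl2 the median log2 fold change of the neighbours was 0.90, with 17 called higher and 2 lower, and around Bhlhe41 it was 1.01, with 20 higher and 2 lower. Both clock genes were thus far below their neighbours, and because they lie close together these neighbourhoods share genes. Bhlhe40, elsewhere on chromosome 6, had neighbours with a median of 0.15. Cry1 lay within the interquartile range of its own neighbours, whose median was 0.58 against 0.77 for the gene, and so did Clock, with 0.22 against 0.42, Arntl, with 0.11 against -0.44, and Per2, with -0.31 against 0.11. The neighbours of Nr1d1 had a median of -0.32, those of Per1 -0.15 and those of Cry2 0.01. Csnk1d, 0.979 Mb from the end of chromosome 11, was level with its surroundings, with a median of 1.48 and 30 of 40 neighbours called higher, whereas the neighbours of Wdr5 had a median of -0.10.

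**Figure D4:**
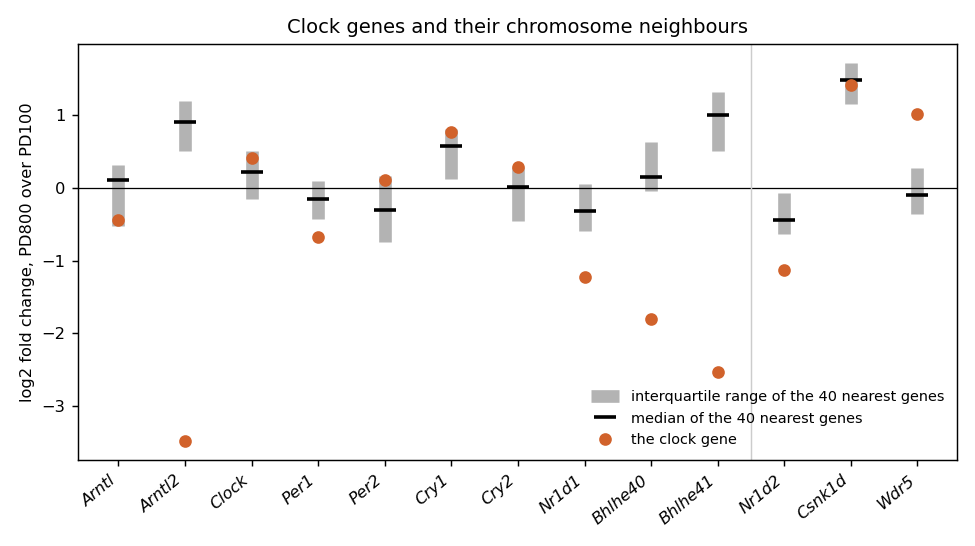
Orange points are the log2 fold change (PD800 over PD100) of each clock gene, black bars the median and grey bars the interquartile range of its 40 nearest tested genes. Arntl2 and Bhlhe41 lie far below neighbours with medians of 0.90 and 1.01, and Csnk1d lies near its neighbours' median of 1.48.

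Several clock genes also answer to hormones, growth factors, cAMP and oxygen, so genes of these responses were listed beside them. Of 11 inducible genes 8 fell and none rose by the rule above, with a median log2 fold change of -1.32. Of all tested genes 8.81% were called lower and 6.28% higher. A log2 fold change above 0 was found in 3 of the 11. Among these were Sik1 at 0.52 (edgeR adjusted p = 0.00514), under the fold set, and Crem at 0.26. By mean TPM over all libraries the most abundant inducible genes were Sgk1, a glucocorticoid-induced kinase, which fell (log2 fold change -1.58), the immediate early gene Ier2, which also fell (-1.04), and Fkbp5, a target of the glucocorticoid receptor, which was not called (0.18). Of 8 hypoxia genes 1 fell, Adm, and the median was -0.23. By the adjusted p alone (under 0.01, edgeR) the list was split, with 4 lower and 2 higher. Those higher were Bnip3 (0.92) and Slc2a1 (0.46). Of all 19148 tested genes, 2943 were lower and 2513 higher at that threshold. Adm and, of the inducible genes that fell, Fosb passed the filter through the pre-ALT libraries only. The part of either response in the clock genes' values was not tested.

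Markers of other cell types moved with the same contrast. All 6 primitive endoderm markers fell, and their summed CPM was 121 to 141 in pre-ALT and 10.4 to 10.8 in post-ALT libraries, with none at 0, and Sox17 passed the filter through the pre-ALT libraries only. Of 5 formative and primed epiblast markers 4 fell, from a summed CPM of 326 to 344 down to 97.8 to 101. Fibroblast markers, listed for the feeders, came to 45.4 to 67.7 CPM before and 10.9 to 11.8 after, 4 of the 6 tested fell, and the fibroblast matrix gene Lum was at 0 in both pre-ALT libraries and in 1 post-ALT library. Dcn, which was not called, passed the filter through the pre-ALT libraries only and was at 0 in 1 post-ALT library. The part of these cell types in the clock genes' values was not tested, and in bulk RNA fewer cells of a type and less RNA per cell cannot be told apart.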

How the data were processed

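The authors sequenced RNA from 4 libraries, aligned the reads to mm10 with STAR 2.5.3a and estimated gene levels with RSEM 1.3.0, per the submitters' processing notes, which also name DESeq2 1.18.1. The annotation release is not given in the sources used here. The deposited tables hold expected counts, TPM and mean transcript lengths per gene and library. Expected counts were rounded and fitted in R 4.3.3 with edgeR 4.0.16 (filterByExpr minimum count 10, TMM factors 0.960 to 1.05, quasi-likelihood test, Benjamini-Hochberg), after the script was tested on simulated data. Library totals set a floor, for 3 counts, of 0.0743 to 0.0934 CPM. Deposited TPM served for levels between genes and for limma 3.58.1. Groups came from the labels, PD800 (2) against PD100 (2). The methods call the samples biological duplicates, but the labels name no separate cultures, so p-values measure the spread between these libraries, which may be technical. Coordinates came from GENCODE M21, matched by unversioned identifier for 53274 of 53379 genes. Alternatives were DESeq2 1.42.0, other normalisations, filters and units, a test of the fold itself, a replicate term and leaving out each library. All 10 members were named, and of the other clock genes every loop gene but 1 that is not reported here, every called gene and the most abundant of each list. The members and lists were chosen with earlier results of these data known.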

Additional observations from a re-analysis of the deposited data

How the results depend on the processing

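Over 14 alternatives, 123 values for the members moved by less than the spread between replicates, and the 16 that moved did so in the fits on log2 TPM. The 123 overstate stability, because some of them could hardly move. Testing a fold leaves the fitted value as it was, and leaving out 1 of 2 libraries shifts a group mean by less than that spread. Testing a fold over 2 in the model gave 386 genes higher and 685 lower (against 1202 and 1686), 2 members lower (Arntl2 and Bhlhe40, against 4), 1 other clock gene higher (Csnk1d) and 0 lower. With limma on log2(TPM + 1), which understates low genes, 297 genes were higher and 920 lower, 2 members lower and 1 other clock gene higher, and the medians were -0.41 for the members, -0.13 for the other clock genes and -0.12 for all genes. With log2(TPM + 0.1) there were 533 genes higher and 1779 lower, 3 members lower (all but Nr1d1) and 1 other clock gene higher, with medians of -0.78 and -0.18, while the median of all genes was -0.21. Leaving out each library gave 1 to 2 other clock genes higher. In these fits a group left with 1 library is assumed to vary like the other. Per2 was at -0.01 without replicate 1 of the post-ALT cells, and Npas2, Per3 and Nono, none of them called, also changed sign under some settings. A minimum mean of 1 CPM removed Bhlhe41 from the fit. With a replicate block, 4 members remained called lower and Nr1d2 had an adjusted p of 3.26e-06. The labels do not say what a replicate number shares, and the deviations of same-numbered libraries correlated at 0.265.

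Depth limited Per2, Nr1d1, Bhlhe41 and Arntl2 in post-ALT cells, and 2 libraries a group limited every comparison.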
